A study of Mus musculus with 6 samples.

Results

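The replication-dependent histone genes supply the H1, H2A, H2B, H3 and H4 proteins that package newly made DNA. They were taken by symbol, as every gene named in the older Hist1h to Hist4h style or by its current equivalent, with pseudogenes left out. The rule found 67 of the 51912 genes measured, made up of 6 H1, 18 H2A, 18 H2B, 12 H3 and 13 H4 genes, and left out 3 pseudogenes. By cluster, 54 genes belong to the Hist1 cluster on chromosome 13, 10 to Hist2 on chromosome 3, 2 to Hist3 on chromosome 11 and 1 to Hist4 on chromosome 6.

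E14, 1 line of mouse embryonic stem cells, was used for poly(A) RNA sequencing at both steps of the ribosome purification RAPIDASH. All cells were grown on gelatin in serum medium with LIF and were given cycloheximide, which holds ribosomes on messages, shortly before harvest. The 3 pellet libraries come from ribosome-containing material spun through a sucrose cushion, and the 3 eluate libraries from pellet material that was further bound to and eluted from a cysteine-charged resin, so that the comparison asks what the resin step changed. Sample titles carry replicate numbers 1 to 3 and name no separate cultures. The p-values therefore describe only the spread among these samples, which may be technical.

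Messages of this family are unusual among animal mRNAs in that most end in a conserved stem-loop and carry no poly(A) tail. The stem-loop is bound by SLBP (stem-loop binding protein), the U7 snRNP directs cleavage just after it, and the messages are made in S phase and destroyed when DNA synthesis ends. Some of these genes can also give longer RNAs that run past the stem-loop to a poly(A) site, or are spliced to a downstream exon, and such RNAs carry a tail. Selection for poly(A) keeps the tailed forms, so the levels given here are not those of the histone message pool as a whole.

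The stem-loops are shown first because the position of each in its transcript model decides which part of a gene's reads can lie beyond it. They were searched for as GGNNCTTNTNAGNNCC with a stem of 6 paired bases and a loop of 4 bases, on both strands. The motif was found on the sense strand of 48 of the 70 histone models in the files (46 genes) and of 22 of the 76788 other transcripts (0.0287%), and on the antisense strand of 0 histone models. Each line gives the stem-loop in capitals with up to 5 flanking bases in lower case, 5′ to 3′, in DNA letters from the GENCODE release 21 transcripts. The genes are those with a stem-loop in the model among the ones called higher in the eluates below, followed by Hist1h3g and Hist1h4d, which were not called.
Hist1h1c: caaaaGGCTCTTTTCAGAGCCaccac
Hist3h2a: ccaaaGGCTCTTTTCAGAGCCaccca
Hist1h2ae: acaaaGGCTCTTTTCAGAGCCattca
Hist1h2ap: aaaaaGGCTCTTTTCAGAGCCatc
Hist1h2bk: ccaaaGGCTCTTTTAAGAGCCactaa
Hist1h2bj: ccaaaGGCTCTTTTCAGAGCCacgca
Hist3h2ba: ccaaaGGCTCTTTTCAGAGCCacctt
Hist1h3c: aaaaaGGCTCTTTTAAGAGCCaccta
Hist1h4b: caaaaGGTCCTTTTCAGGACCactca
Hist1h4h: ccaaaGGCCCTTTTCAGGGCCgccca
Hist1h3g: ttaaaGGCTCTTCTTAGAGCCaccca
Hist1h4d: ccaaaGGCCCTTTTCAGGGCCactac

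The 48 stem-loops came in 8 spellings, which followed the histone type. All 34 H1, H2A, H2B and H3 genes with a stem-loop had a stem that opens GGCTC, and the 12 such H4 genes had one that opens GGCCC (10 genes) or GGTCC (2 genes). The most common spelling, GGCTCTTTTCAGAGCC, was in 26 genes of the first 4 types, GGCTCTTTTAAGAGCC in 6, and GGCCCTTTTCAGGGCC in 7 H4 genes. The letters aaa stood directly before 44 of the 48 stem-loops. The stem-loop lay 21 to 58 bases after the end of the coding part, with a median of 31.

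Most of the annotated models ran on past the stem-loop. Only 2 models, those of Hist1h2ap and Hist1h4m, ended within 10 bases of it, and 46 ended later, by up to 4884 bases (Hist1h1d). The median distance from stem-loop to model end was 129.5 bases. Of the 28 models that ended more than 50 bases past the stem-loop, 14 held the poly(A) signal AATAAA or ATTAAA in their last 50 bases (50%), against 62.5% of the other protein-coding transcripts. Another 13 models held the coding part with nothing after it, which includes the model of Hist1h3h. The remaining 9 had no whole stem-loop but some sequence after the coding part: the models of Hist1h1a and Hist2h3b stopped inside a stem-loop, those of Hist1h2af and Hist1h2ah 1 and 2 bases after the coding part, that of Hist2h2be ran on for 2192 bases, and those of Hist1h2bc and 3 others joined 2 exons.

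**Figure D1:**
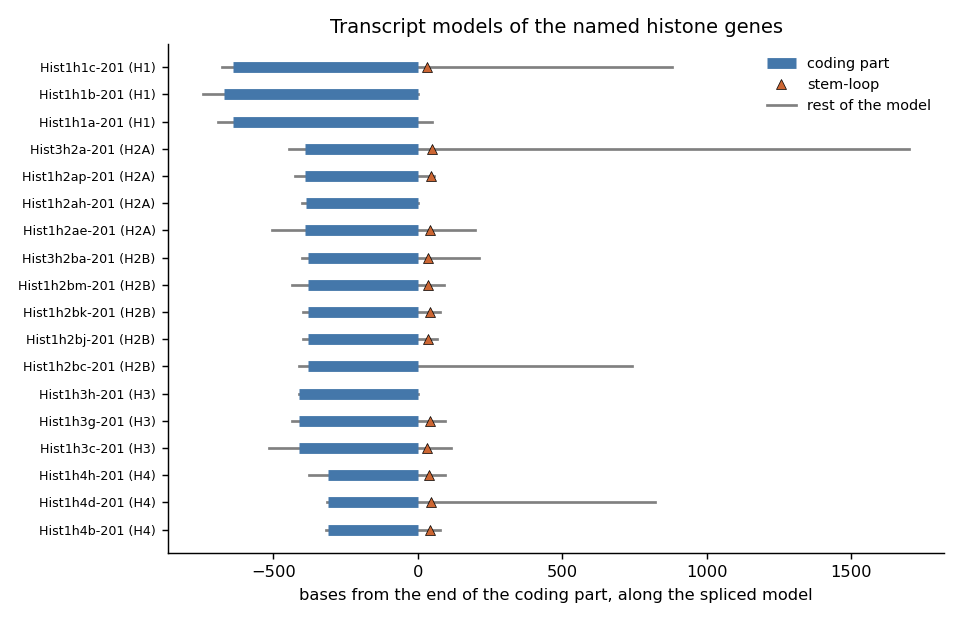
Transcript models of the 18 histone genes named in the text, drawn along the spliced model with position 0 at the end of the coding part; x axis in bases. The blue bar is the coding part, the grey line the rest of the model and the triangle the stem-loop. The models of Hist3h2a, Hist1h1c and Hist1h4d run 1643, 840 and 770 bases past the stem-loop, and that of Hist1h2bc runs 742 bases past the coding part with no stem-loop.

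Library totals were 7.838e+06 to 1.164e+07 estimated counts, of which the histone genes held little. Estimated counts added up to 1251, 1277 and 1033 for pellets 1 to 3 and to 2277, 2122 and 2108 for eluates 1 to 3. Of the counts in transcripts matched to the annotation, that was 0.0137% ± 0.00137 for a pellet and 0.0202% ± 0.00112 for an eluate (SD, n = 3 each). Log levels across genes correlated at 0.978 to 0.987 within a group and 0.940 to 0.967 between groups. Pellet 1 stood apart from the other pellets, with a chi-square per gene of 13.3 and 16.8 against them where pellets 2 and 3 differed by 3.45. Pellet 1 also lay nearer the eluates, at 30.5 to 32.9 against them, where pellets 2 and 3 were at 60.9 to 74.5. Stem cell markers summed to 9720 to 10000 CPM, counts scaled to a common library size, in pellets and to 11800 to 12200 in eluates. Fibroblast markers summed to 10 to 12.8 in pellets and 15.6 to 21.1 in eluates (Postn and Lum at 0), endoderm markers to 6.78 to 8.55 and 8.82 to 12.6, mesoderm markers to 0.35 to 0.911 and 1.0 to 1.92, and neural markers to 91.4 to 108 and 95.4 to 111, and their part in the results was not tested.

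The eluates held more histone message than the pellets. Summed over all 67 genes, the level as CPM, the counts scaled to a common library size with TMM factors, was 145.8, 129.3 and 138.0 for pellets 1 to 3. It was 198.5, 193.0 and 211.0 for eluates 1 to 3. Every eluate was above every pellet, with means of 138 ± 8.28 and 201 ± 9.22 and a ratio of 1.46. In TPM (transcripts scaled to a common total), which divides by each model's effective length, the sums were 452 ± 71.4 and 635 ± 56.9, a ratio of 1.41. The summed counts do not depend on how reads were divided among near-identical genes of the family. They do depend on how reads were divided with genes outside the family that share sequence with it. Bulk RNA gives no value per cell, so for the level within a library the number of cells carrying these messages and the amount per cell cannot be told apart. Pellets and eluates are steps of the same purification, so their ratio compares fractions rather than cell populations.

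Each histone type was higher in the summed CPM of every eluate than in that of any pellet. H2B, which pairs with H2A in the nucleosome, summed to 35.91, 37.65 and 36.47 CPM in the pellets and 55.0, 53.39 and 61.56 in the eluates, a ratio of 1.54. H3, a core histone with a heavily modified tail, summed to 33.73, 26.92 and 32.81 CPM in the pellets and 46.11, 45.66 and 52.05 in the eluates, a ratio of 1.54. H2A summed to 33.73, 26.65 and 29.03 CPM in the pellets and 45.06, 41.64 and 47.3 in the eluates, a ratio of 1.5.

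The linker histone H1 and the core histone H4 had the smaller ratios. H1, which binds the DNA between nucleosomes, summed to 17.37, 16.09 and 14.56 CPM in the pellets and 21, 21.46 and 20.62 in the eluates, a ratio of 1.31, and its summed TPM overlapped between the groups. H4, the partner of H3, summed to 25.07, 21.96 and 25.12 CPM in the pellets and 31.29, 30.83 and 29.43 in the eluates, a ratio of 1.27. As a share of all histone counts, H4 made up 17.2%, 17% and 18.2% in the pellets and 15.8%, 16% and 13.9% in the eluates. That share was lower in every eluate than in any pellet, and the shares of the other 4 types overlapped between the groups.

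**Figure D2:**
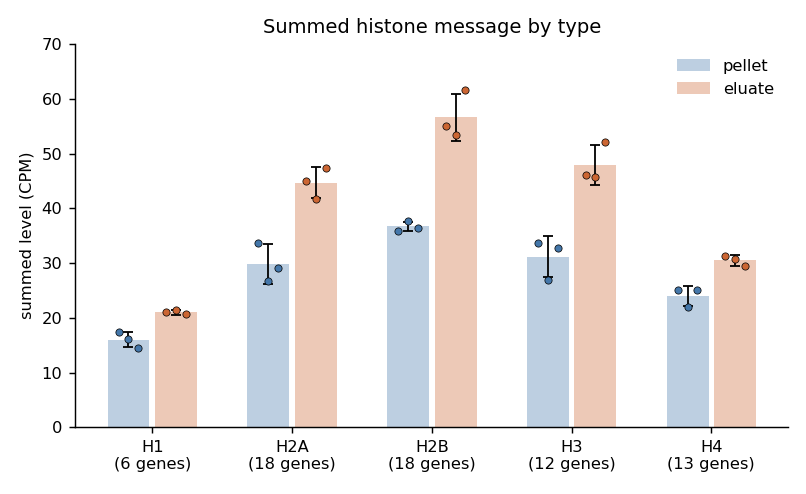
Summed level of each histone type in CPM (y axis) for the 3 pellets and the 3 eluates; bars are means, whiskers SD and points single libraries. The eluate points lie above the pellet points in all 5 types, with means of 56.6 against 36.7 CPM for H2B and 30.5 against 24.0 CPM for H4.

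Gene by gene, 44 of the 67 passed the low-count filter and were tested with edgeR over all 13231 genes. Of these, 12 rose (27.3%), 0 fell and 32 were not called, with calls taken below an adjusted p of 0.05. Over all genes tested 24.5% were called higher, 28.2% lower and 52.7% either way, so the share of histone genes that rose was near the background. These shares were not taken at like depth. The median was 84.1 estimated counts over all 67 histone genes, tested or not, against 1257 over all genes tested. Across the 44 tested histone genes the log2 fold change had a rank correlation of 0.483 with mean CPM. At an unadjusted p under 0.05 there were 15 higher and 0 lower, against 27.5% and 30.5% of all genes. The called genes were 1 of 4 tested H1 genes, 3 of 7 H2A, 4 of 12 H2B, 2 of 11 H3 and 2 of 10 H4. By position they were 10 of 37 tested genes of the Hist1 cluster, 0 of 5 of Hist2 and both tested genes of Hist3.

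Most of the genes that were not called also lay above 0. Fold changes were positive for 40 of the 44 tested genes (90.9%), against 50.2% of all genes tested. Their median log2 fold change was 0.45, with a range of -0.54 to 1.02, beside a median of 0.0035 over all genes and a 10th to 90th percentile of -0.96 to 0.58. In 17 of the 44 every eluate was above every pellet in CPM (38.6%), where 29.1% of all genes tested did so, and in 1, Hist2h2be, every eluate was below every pellet (31.2% of all genes). By type the medians were 0.26 for H1, 0.63 for H2A, 0.45 for H2B, 0.49 for H3 and 0.35 for H4.

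**Figure D3:**
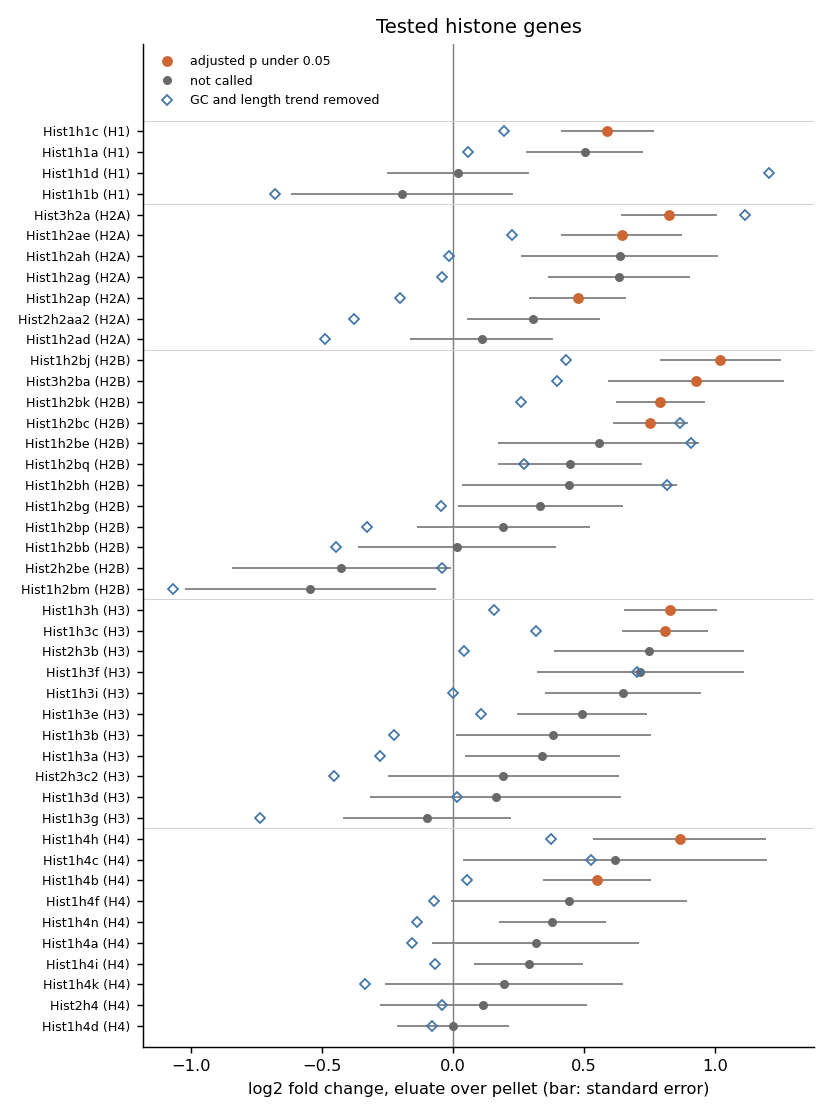
Log2 fold change of eluate over pellet (x axis) for the 44 tested histone genes (y axis, grouped by type). Filled points with standard error bars are from the comparison of counts, orange where the adjusted p was under 0.05 (12 genes); open diamonds are the values after each library's trend in GC content and length was removed. Filled points lie above 0 for 40 genes and diamonds for 22.

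The 23 genes that were not tested held few counts. Together they reached 7.72, 9.1 and 5.59 CPM for pellets 1 to 3, and 12, 9.11 and 12.6 CPM for eluates 1 to 3. The eluates were above the pellets here too, though eluate 2 and pellet 2 were nearly level. Of these, 3 genes, Hist1h2aa, Hist1h2br and Hist1h4m, were listed at 0 in every library. The testis-type genes Hist1h1t, Hist1h2aa and Hist1h2ba held 10, 0 and 2 estimated counts over all 6 libraries. These testis histones replace the somatic ones in male germ cells.

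Levels between genes can be set side by side only per length. By mean TPM over the 6 libraries, Hist1h2bk came first at 57.1, followed by Hist1h3h at 45.7, Hist1h2ah at 33.7, Hist1h3c at 30.3 and Hist1h4b at 29.0. The models of Hist1h3h and Hist1h2ah stop at or next to the end of the coding part, which shortens the length their counts are divided by. In counts, Hist1h2bk, Hist1h2bc and Hist1h3c together held 21.7% of all histone counts, and 11 genes held 51.1%.

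The H2B genes held both the most abundant member and the highest fold change. Hist1h2bk was at 8.47, 9.28 and 11.9 CPM for pellets 1 to 3 and 14.8, 15.4 and 21 for eluates 1 to 3. All eluates were above all pellets, with pellet 3 and eluate 3 the highest of their groups, and the log2 fold change was 0.79 ± 0.17 (SE; adjusted p = 0.00109). Hist1h2bj was at 2.27, 2.62 and 3.02 CPM in the pellets and 5.99, 4.41 and 5.88 in the eluates. The groups did not overlap and the log2 fold change of 1.02 ± 0.23 (adjusted p = 0.00163) was the highest among the 44 tested histone genes.

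Hist1h2bc differs from both in its model, which joins 2 exons and holds no stem-loop. It was at 9.33, 9.28 and 7.89 CPM in the pellets and 15.9, 15.0 and 13.9 in the eluates. The libraries of each group lay close together and the groups far apart, and the log2 fold change was 0.75 ± 0.14 (adjusted p = 0.000343), the smallest adjusted p among the histone genes. Hist3h2ba, an H2B gene of the small Hist3 cluster, was at 0.933, 1.42 and 1.34 CPM in the pellets and 1.74, 2.46 and 2.90 in the eluates. Its groups did not overlap, and its log2 fold change was 0.93 ± 0.34 (adjusted p = 0.0295). Hist1h2bm, the H2B gene with the smallest p among those below 0, was at 1.40, 1.72 and 0.401 CPM in the pellets and 0.785, 1.09 and 0.601 in the eluates. Its groups overlapped and its log2 fold change was -0.54 ± 0.48 (adjusted p = 0.363). Hist2h2be, named because it alone lay lower in every eluate, was at 1.05, 1.01 and 1.07 CPM in the pellets and 0.697, 0.637 and 1.00 in the eluates, with a log2 fold change of -0.43 (adjusted p = 0.414).

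Among the H2A genes, Hist3h2a, the neighbour of Hist3h2ba in the Hist3 cluster, was at 6.41, 4.49 and 5.41 CPM in the pellets and 10.4, 8.37 and 9.77 in the eluates. All eluates lay above all pellets, and the log2 fold change was 0.83 ± 0.18 (adjusted p = 0.0014). Its model runs 1643 bases past the stem-loop, and 32.1% of its subsequences of 31 bases also occur in transcripts of Trim17, another protein-coding gene. Hist1h2ae was at 3.37, 2.40 and 4.09 CPM in the pellets and 4.87, 5.01 and 5.51 in the eluates. The groups did not overlap, and the log2 fold change was 0.64 ± 0.23 (adjusted p = 0.0282). Hist1h2ap, whose model ends 3 bases after the stem-loop, was at 5.22, 4.95 and 4.45 CPM in the pellets and 7.57, 6.21 and 6.63 in the eluates. It rose by a log2 fold change of 0.48 ± 0.19 (adjusted p = 0.0414), with groups that did not overlap. Hist1h2ah was at 6.50, 1.69 and 4.64 CPM in the pellets and 5.99, 7.57 and 6.24 in the eluates. Pellet 1 lay above eluates 1 and 3, and the log2 fold change of 0.64 ± 0.38 was not called (adjusted p = 0.19). Without pellet 1 it was 1.1 (adjusted p = 0.00162).

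The H2A values carry a further limit, because H2afx, the gene of the H2A.X variant that is phosphorylated at DNA breaks, shares sequence with them and was far more abundant. H2afx stood at 644 ± 70.9 CPM in the pellets and 1270 ± 70.3 in the eluates. Between 1.4% (Hist3h2a) and 33.1% (Hist1h2ai) of the 31-base subsequences of the 18 H2A genes also occur in H2afx. Gm20634, another gene outside the family, shares such subsequences with the H2A genes, from 1.0% (Hist3h2a) to 100% (Hist2h2aa2). It also shares them with the H3 genes, from 8.0% (Hist1h3f) to 100% (Hist2h3c1), with 80.6% for Hist2h3b, 64.2% for Hist2h3c2 and 28.9% for Hist1h3h. The part of the reads of H2afx and Gm20634 in the H2A and H3 values was not tested.

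Both H3 genes that were called belong to the Hist1 cluster. Hist1h3c was at 8.05, 6.74 and 9.73 CPM in the pellets and 14.1, 12.7 and 16 in the eluates. The groups lay well apart, and the log2 fold change was 0.81 ± 0.16 (adjusted p = 0.000649). Hist1h3h was at 5.26, 4.81 and 6.72 CPM in the pellets and 10.5, 9.13 and 9.76 in the eluates. Its groups did not overlap and its log2 fold change was 0.83 ± 0.18 (adjusted p = 0.000983), though only 5.8% of its 31-base subsequences are its own. Hist1h3g was at 2.05, 1.47 and 1.78 CPM in the pellets and 1.97, 1.33 and 1.64 in the eluates. Its libraries overlapped throughout (log2 fold change -0.10 ± 0.32, adjusted p = 0.82).

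In H4, Hist1h4b was at 3.65, 3.25 and 4.04 CPM in the pellets and 4.89, 5.40 and 5.62 in the eluates. Every eluate was above every pellet, and the log2 fold change was 0.55 ± 0.21 (adjusted p = 0.0351). Hist1h4h was at 1.91, 1.33 and 0.947 CPM in the pellets and 2.65, 2.04 and 3.00 in the eluates. Eluate 2 lay only just above pellet 1, and the log2 fold change was 0.87 ± 0.33 (adjusted p = 0.037). Hist1h4d, the H4 gene with the most counts, was at 5.36, 3.74 and 5.74 CPM in the pellets and 5.40, 5.00 and 4.30 in the eluates. Its groups overlapped, with pellet 3 the highest library, and its log2 fold change was 0.002 ± 0.21 (adjusted p = 0.994).

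In H1, Hist1h1c was at 5.95, 4.86 and 6.41 CPM in the pellets and 8.11, 8.19 and 9.51 in the eluates. The groups did not overlap, and the log2 fold change was 0.59 ± 0.18 (adjusted p = 0.0109). Hist1h1a was at 5.13, 6.68 and 3.34 CPM in the pellets and 8.11, 7.28 and 6.41 in the eluates. Pellet 2 lay above eluate 3, and the log2 fold change of 0.50 ± 0.22 missed the threshold (adjusted p = 0.0688), which it passed at 0.0162 without pellet 2. Hist1h1b was at 2.91, 0.81 and 1.74 CPM in the pellets and 1.48, 2.09 and 1.1 in the eluates. Pellet 1 was the highest library and the groups overlapped (log2 fold change -0.19 ± 0.42, adjusted p = 0.728).

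**Figure D4:**
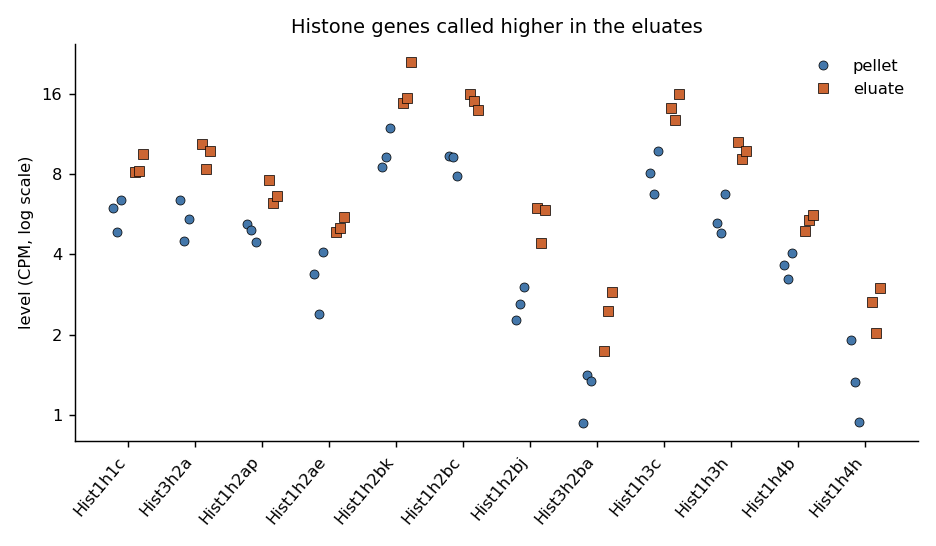
Level in CPM (y axis, log scale) of the 12 histone genes called higher in the eluates, with 3 pellet libraries (circles) and 3 eluate libraries (squares) per gene, in replicate order from left to right. For each gene the lowest eluate lies above the highest pellet, with the narrowest gap for Hist1h4h (2.04 against 1.91 CPM).

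Of the 12 calls, 6 were made again whichever library was left out, those of Hist1h2bk, Hist1h2bc, Hist1h2bj, Hist3h2a, Hist1h3c and Hist1h3h. The other 6 were lost without at least 1 library. Without pellet 2 the adjusted p was 0.0609 for Hist1h1c, 0.144 for Hist1h2ae, 0.0826 for Hist1h2ap, 0.118 for Hist1h4b and 0.0986 for Hist1h4h. Without eluate 3 it was 0.0501 for Hist1h1c, 0.0826 for Hist1h2ae, 0.0688 for Hist1h2ap, 0.116 for Hist3h2ba, 0.0873 for Hist1h4b and 0.126 for Hist1h4h. Without pellet 3 it was 0.129 for Hist1h2ap, 0.06 for Hist3h2ba and 0.142 for Hist1h4h, and without pellet 1 it was 0.0897 for Hist3h2ba and 0.0527 for Hist1h4b. Without eluate 1 it was 0.0551 for Hist1h2ae, 0.15 for Hist1h2ap and 0.094 for Hist1h4h, and without eluate 2 it was 0.0539 for Hist1h2ae, 0.0753 for Hist3h2ba and 0.079 for Hist1h4b. The authors' deposited table compares the same 6 libraries and lists 4892 genes, 2177 of them higher and 2715 lower in the eluates. It holds the same 6 histone genes as those called whichever library was left out, all higher in the eluates. Their log2 fold changes in that table, as the authors' deposited table gives them, were 0.80 for Hist1h2bk, 0.80 for Hist1h2bc, 1.03 for Hist1h2bj, 0.88 for Hist3h2a, 0.75 for Hist1h3c and 0.86 for Hist1h3h.

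Counts of calls moved with the setting. DESeq2 called 7 higher and 0 lower (21.4% of all genes higher). Without pellet 1 edgeR called 16 higher (27.5% of all genes) and without eluate 3 it called 6 (20.2%). Without both libraries numbered 1 it called 14 (26.4%), and without both numbered 3 it called 6 (14.5%).

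Tested as single transcripts, 6 of 44 histone models rose, against 11.9% of all 19207 transcripts tested, and they belong to the same 6 genes. Without pellet 1, 2 models were called (12.3% of all transcripts), without pellet 2 it was 1 (8.36%) and without pellet 3 it was 4 (7.06%). Without eluate 1, 2 or 3 it was 1 each time (7.3%, 7% and 7.08%). Many family members cannot be told apart by their reads: 40 of the 67 genes have under 50% of their 31-base subsequences to themselves, and Hist1h2bq and Hist1h2br have 0% and 0.2% to themselves. Linked genes were therefore also summed before the test. A pair was linked where at least 50% of the shorter gene's subsequences were shared, and linked pairs were chained into groups. Genes within a group can thus share little, such as 12.3% for Hist1h2be and Hist1h2bh. Summing gave 17 tested features, of which 7 rose (24.6% of all features). The summed group of 14 H2B genes rose by a log2 fold change of 0.65 ± 0.09 (adjusted p = 1.96e-05). The group of 9 H3 genes rose by 0.63 ± 0.11 (adjusted p = 0.000151), that of 12 H2A genes by 0.59 ± 0.11 (adjusted p = 0.000296) and that of 7 H4 genes by 0.47 ± 0.13 (adjusted p = 0.00487). Hist1h1c, Hist3h2a and Hist3h2ba, each a feature of its own, were the other 3.

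The end of the model did not separate the groups. Models that run past the stem-loop held 66.1%, 69.7% and 71.1% of histone counts in the pellets and 65.8%, 67.6% and 69.3% in the eluates. Models with some sequence after the coding part, from 1 base upwards, but no whole stem-loop held 17% ± 1.95 and 17.8% ± 1.11. Models of the coding part alone held 10.5% ± 2.0 and 11.3% ± 0.64, and models ending at the stem-loop 3.54% ± 0.304 and 3.39% ± 0.368 (SD, n = 3 each). All 4 shares overlapped between pellets and eluates. The 19 models with a poly(A) signal near their end held 21.5% ± 1.41 of a pellet's histone counts and 21.7% ± 0.46 of an eluate's. These shares follow the models to which the authors' software gave the reads, since the files give no positions within a model.

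Over all genes the difference between eluates and pellets went with GC content and length, and the histone models are short and rich in GC. The tested histone genes had a median model length of 616 bases and 56.8% GC, against 2762 bases and 50.8% over all genes tested. Across all 13231 genes the log2 fold change had a rank correlation of 0.709 with GC content and -0.435 with model length, and across the 44 histone genes of 0.153 and -0.196, given as descriptions over genes that share the same 6 libraries. Among histone models with at least 60% GC the median log2 fold change was 0.48 (13 genes), near the 0.55 of all genes in that range. At 50 to 60% GC it was 0.38 (21 genes) against 0.23. Below 50% GC it was 0.50 (10 genes), where the median of all genes was -0.43. Those 10 include models with long sequence past the stem-loop, and the model of Hist3h2a has 45.9% GC as a whole and 58.3% up to the end of the stem-loop.

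**Figure D5:**
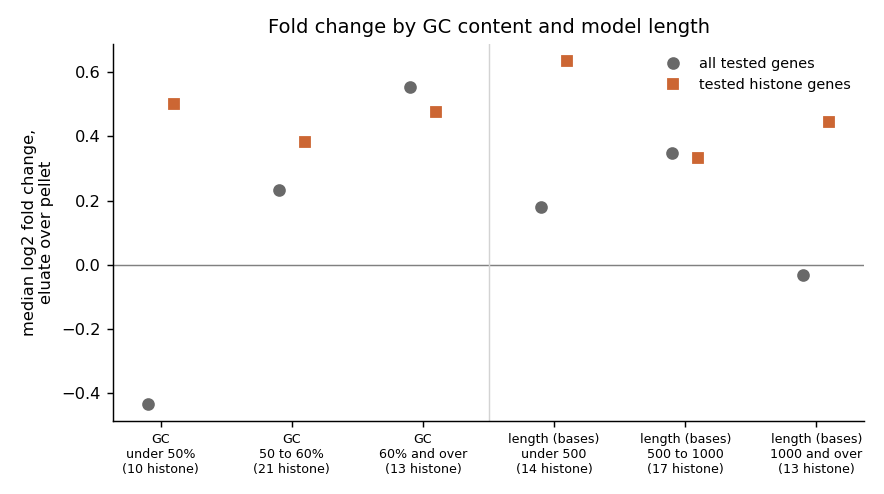
Median log2 fold change of eluate over pellet (y axis) for all tested genes (circles) and the tested histone genes (squares) in 3 ranges of GC content and 3 ranges of model length (x axis, with the number of histone genes). The histone and all-gene medians are 0.48 and 0.55 at 60% GC and over but 0.50 and -0.43 below 50% GC. By length they are 0.635 and 0.181 in the shortest range, 0.333 and 0.347 in the middle and 0.444 and -0.032 in the longest.

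Once each library's smooth trend in GC content and length was removed, the histone genes as a group no longer stood above the other genes. Their median log2 fold change was -0.007, with 22 above and 22 below 0, beside 0.0135 over all genes. Of the 44 tested, 3 were called higher and 0 lower, against 19.1% and 15.9% of all genes. The 3 were Hist1h2bc at 0.87 (adjusted p = 1.8e-05), Hist3h2a at 1.11 (adjusted p = 2e-05) and Hist1h1d at 1.21 (adjusted p = 0.00128), all with models longer than 1000 bases. Hist1h1d, an H1 gene with a model of 7425 bases, had a log2 fold change of 0.02 without the correction (adjusted p = 0.958) and is named because the correction called it. Among the abundant genes, Hist1h2bk was at 0.26 (adjusted p = 0.298), Hist1h3c at 0.32 (adjusted p = 0.118) and Hist1h3h at 0.16 (adjusted p = 0.522).

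The correction needs the length and GC content of the RNA, which for a histone gene depend on where the message ends. With each model measured only up to the end of its stem-loop, a setting chosen after seeing the data, the median was -0.10 and 1 gene was called higher (19.2% of all genes), Hist1h2bc at 0.87 (adjusted p = 1.8e-05), whose model has no stem-loop and was left whole. Hist3h2a was then at 0.30 (adjusted p = 0.187) and Hist1h1d at 0.40 (adjusted p = 0.278). With GC content alone removed the median was 0.14 and 6 genes were called higher against 22.3% of all genes. Which of these lengths the sequenced RNAs had was not tested.

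Replication-independent histone variants are made through the cell cycle mostly from genes with tailed messages. H2afx is an exception among the 11, since its model also holds the stem-loop sequence of the replication-dependent genes. All 11 were tested. Where 24.5% of all genes tested were called higher, 10 of these 11 rose. They were H1fx at a log2 fold change of 1.55 ± 0.10, H2afx at 0.98 ± 0.08, H2afj at 0.58 ± 0.07, H2afv at 0.49 ± 0.07, the macroH2A gene H2afy at 0.46 ± 0.08, the centromeric H3 gene Cenpa at 0.42 ± 0.07, the H3.3 genes H3f3b at 0.34 ± 0.07 and H3f3a at 0.20 ± 0.06, the linker gene H1f0 at 0.31 ± 0.08 and the H2A.Z gene H2afz at 0.30 ± 0.06. H2afy2 was not called (0.18 ± 0.08, adjusted p = 0.0859). The median log2 fold change of the 11 was 0.42, beside 0.45 for the tested replication-dependent genes. With the GC and length trend removed 8 of the 11 were still called higher (19.1% of all genes), without H2afj (0.04, adjusted p = 0.657) and H1f0 (0.16, adjusted p = 0.0718). Per length the variants were the more abundant set, with a summed TPM of 5530 ± 375 in the pellets and 6990 ± 83.6 in the eluates. The replication-dependent genes made up 7.52% ± 0.65 of the TPM of both sets in the pellets and 8.33% ± 0.615 in the eluates, and these shares overlapped.

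Genes that act on histone messages went in both directions. Of 24 tested genes for their transcription, 3′ end processing and decay, 7 rose, 11 fell and 6 were not called, with a median log2 fold change of -0.20, beside 24.5% higher and 28.2% lower over all genes. Slbp itself was at 142 ± 6.78 CPM in the pellets and 145 ± 9.54 in the eluates (log2 fold change 0.04 ± 0.07, adjusted p = 0.7). Npat, which activates histone gene transcription, fell by 1.18 ± 0.13 on the log2 scale (adjusted p = 3.27e-06). Cpsf2, a subunit of the cleavage complex, fell by 1.30 ± 0.11 (adjusted p = 5.73e-07). Nelfe, a subunit of the negative elongation factor, rose by 0.53 ± 0.08 (adjusted p = 2.66e-05), and Ccne1, the cyclin E gene with the highest CPM of the list, rose by 0.36 ± 0.06 (adjusted p = 0.00021). Ccne2, the other cyclin E gene, fell by 1.48 ± 0.18 (adjusted p = 8.2e-06). With the trend removed 7 were higher and 5 lower (19.1% and 15.9% of all genes). The calls of Npat (-0.12, adjusted p = 0.398), Nelfe (0.03, adjusted p = 0.788) and Ccne2 (-0.26, adjusted p = 0.134) were then lost, and Slbp was called higher at 0.20 (adjusted p = 0.0091).

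Of 15 tested genes for histone chaperones and deposition, 10 fell, 1 rose and 4 were not called, where 28.2% of all genes were called lower and 24.5% higher. Their median log2 fold change was -0.33. Nasp, a chaperone of H1 and of H3 with H4, was at 456 ± 83.7 CPM in the pellets and 209 ± 16.6 in the eluates and fell by 1.12 ± 0.14 on the log2 scale (adjusted p = 0.000238). Rbbp7, a histone-binding subunit of several complexes, fell by 0.65 ± 0.07 (adjusted p = 1.95e-06), and its paralog Rbbp4, the most abundant by CPM, fell by 0.18 ± 0.06 (adjusted p = 0.0212). The H3 and H4 chaperone gene Asf1b was the gene that rose, by 0.39 ± 0.08 (adjusted p = 0.000958). With the trend removed 3 were higher and 8 lower (19.1% and 15.9% of all genes), and Rbbp4 was then among the higher, at 0.47 (adjusted p = 1.74e-06).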

How the data were processed

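Groups were taken from the sample titles. The submitters' processing notes name STAR 2.7.11b, cutadapt 4.7, DESeq2 1.44.0, Salmon 1.10.3 and the build GRCm39, without saying what each was used for; the annotation release was not stated. Each deposited library file is the authors' transcript quantification, which by its column names holds an estimated count, TPM and effective length per transcript. For the comparison, the authors deposited a table with a mean normalized signal per gene (baseMean), a log2 fold change, a Wald statistic as a score, and a p-value with its adjusted p-value.

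Of 84226 transcripts, 76858 matched GENCODE release 21 by identifier, which gave symbols, sequences and lengths; the other 7368 were left out. No coordinates are given, because that release is on an older build. The matched transcripts held 97.651% to 98.373% of a library's counts. Estimated counts were summed per gene, rounded and tested with edgeR 4.0.16 in R 4.3.3 (quasi-likelihood, robust dispersion, TMM, default low-count filter, Benjamini-Hochberg over all genes tested, adjusted p under 0.05), a script tested on simulated data. The trend was removed with splines of 5 degrees of freedom in GC content and log length per library, as an offset. Alternatives were other scalings, filters and tests (DESeq2 1.42.0, limma 3.58.1), an effective-length offset, a replicate block and summed genes linked by shared sequence. Others were log2 of TPM with a pseudocount of 1 or 0.1, and leaving out libraries. Measuring models to the stem-loop was added after seeing the data.

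The genes, lists and alternatives were chosen with earlier results of these data known. Genes named are those called, those with a mean of at least 5 CPM, and in each type the highest CPM and the smallest p in each direction; from the list of variants those called; from the other lists the smallest p in each direction, the highest CPM, and Slbp, Npat and Nasp. H2afy2, Ccne2, Hist2h2be, Hist1h1d and the genes in the order of TPM, the listed zeros and the sequence notes were named after their values were seen. RefSeq gave current symbols for 66 of the 67 genes; the older ones of the matched annotation are used.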

Additional observations from a re-analysis of the deposited data

How the results depend on the processing

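The count of 12 histone genes called higher stayed within 1.5 times, and 0 were called lower, under several other settings. Tested histone genes numbered 44 in the main setting, 64 with no count filter and 19 with at least 30 counts in 3 libraries. A steady count is therefore not a steady share of those tested. Of all genes, 24.9% and 30.6% were called higher with the other scalings, 15.1% with no count filter and 28.4% with a stricter one. It was 24.6% with limma voom, 23% with the effective-length offset, 25.8% with protein-coding transcripts only, and with TPM 15.6% (mean TPM at least 1) or 6.19% (no filter). With no count filter 15 histone genes were called, of which 10 were among the 12. DESeq2 called 7 (21.4% of all genes), summing linked genes 7 of 17 features (24.6%), and removing the GC trend 6 (22.3%). With the GC and length trend removed 3 were called, and 1 with models measured to the stem-loop; genes called in all then fell from 6977 to 4633 and 4645. The median log2 fold change of 0.45 was 0.63 with at least 30 counts in 3 libraries (19 genes), 0.14 with the GC trend removed, -0.007 with the GC and length trend removed and -0.10 with models measured to the stem-loop. For these 3 trend settings the cause was not tested.

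Leaving out 1 library gave 6 (without eluate 3) to 16 histone calls (without pellet 1), a median of 0.44 to 0.55 (without pellet 1), 5839 to 7761 genes called in all, and 1 to 4 histone transcripts in place of 6 (2 without pellet 1). Leaving out both libraries of a number gave 6 to 14 histone calls, a median of 0.417 to 0.499 and 4611 to 7417 genes.

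Samples with the same number correlated in their deviations at 0.069, 0.151 and -0.011, so the numbers were not taken to pair the samples. Eluates 1 and 2 correlated best with the pellet of their own number, and eluate 3 with pellet 1 (0.111). The replicate block called 13 histone genes, with Hist1h1a added (0.53, adjusted p = 0.0389), where 25% of all genes were called higher. It called 3 histone transcripts (8.1% of all transcripts higher). With the trend removed as well it called 3 histone genes, where 18.9% of all genes were called higher and 15.8% lower. The histone median was then 0.025, and 4592 genes were called in all.

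Values with a changed sign were, with the GC and length trend removed, -0.203 for Hist1h2ap, -0.014 for Hist1h2ah and -0.081 for Hist1h4d; with the block as well, -0.204 for Hist1h2ap and -0.077 for Hist1h4d; with models measured to the stem-loop, -0.11 for Hist1h1c, -0.19 for Hist1h2ap and -0.49 for Hist1h4d; with the GC trend removed, -0.12 for Hist1h2ap and -0.026 for Hist1h2ah; and with protein-coding transcripts only, -0.001 for Hist1h4d. Leaving out libraries gave ranges of -0.182 to 0.2 for Hist1h4d, -0.26 to 0.036 for Hist1h3g and -0.841 to 0.387 for Hist1h1b. Low counts limit many members: 25 of the 67 held under 60 counts in all, and the median was 84.1.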

Other observations

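The 3 histone pseudogenes left out of all comparisons held few reads. Hist1h2al, an H2A pseudogene, was given 17.4, 4.0 and 15.4 estimated counts across pellets 1 to 3, and 9.3, 14.5 and 18.2 across eluates 1 to 3. Hist1h2aj held 1.6 in eluate 2 and 0 elsewhere, and Hist3h2bb-ps was listed at 0 in every library.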
